A study of Mus musculus with 12 samples.

Results

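The genes described are Cdnf, its paralog Manf and 8 genes of endoplasmic reticulum (ER) protein folding: Hspa5, Hsp90b1, Pdia4, Creld2, Sdf2l1, Dnajb9, Xbp1 and Herpud1. They are 10 of the 51826 entries in the gene table. Cdnf was chosen by its fall in CUG960 atria and ventricles in these same libraries, so its levels in CUG960 against control are given as a description, without a test. The other 9 genes were chosen by their function, with results of these data known. All 10 passed the filter on low counts in both chambers.

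RNA-Seq of poly(A)-selected RNA was done on atria and ventricles of 6 FVB mice, all labelled female and 10 weeks old. The 3 CUG960 +dox mice (V119, V120 and V123) were homozygous for the TREDT960I transgene, which gives an RNA with 960 interrupted CUG repeats, and hemizygous for MHCrtTA. The 3 MHCrtTA +dox controls (V327, V333 and V334) were hemizygous for MHCrtTA only. Both groups received doxycycline chow from postnatal day 1, so the transactivator and the drug were shared and the repeat transgene was not. Per the methods, the groups came from separate matings. Controls came from MHCrtTA hemizygotes and wild type FVB mice, and CUG960 mice from TREDT960I homozygotes. The mating thus differed with genotype too. MHCrtTA is driven by the α myosin heavy chain promoter, which limits induction to cardiomyocytes, whereas the libraries hold RNA of all cells of the chamber. Hence fewer cells of a type and less RNA per cell cannot be told apart. Libraries held 116127966 to 160676189 counts. All 8 atrial cardiomyocyte markers were higher in atria and all 8 ventricular ones lower, so the chambers matched their labels.

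The ER folds secreted and membrane proteins. When unfolded protein accumulates there, the unfolded protein response (UPR) is set off by the sensors IRE1 (Ern1), PERK (Eif2ak3) and ATF6 (Atf6), which raise the transcription of chaperones and of factors that send misfolded protein to the proteasome. Hspa5 (BiP), the Hsp70-family chaperone of the ER, is the classic read-out of this response. CDNF and MANF are small secreted proteins of the ER lumen that end in a KDEL-like retention signal and are known as neurotrophic factors with cell-protective activity. MANF is a well known ER stress-induced gene of cardiomyocytes.

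The ER stress response element, the sequence through which ATF6 and XBP1 act on chaperone promoters, is shown because chaperone promoters are known for it. It was written as CCAAT and CCACG 9 bases apart, on either strand, in a window from 250 bases before to 50 bases after each start in RefSeq (GRCm38.p6). Of the 10 genes 9 had an entry. Manf had none, so its promoter was not searched. Of the 9 genes, 3 held the element, against 37 of all 27025 genes with an entry (0.137%). Its ERSE-II form, ATTGG and CCACG 1 base apart, was in Herpud1 and in 12 genes in all (0.0444%). The UPR element TGACGTGG was in none of the 9 and in 0.714% of all genes. By single promoters, of which a gene can have several, these shares were 0.119%, 0.0365% and 0.676% of 32851. The matches are printed along the gene's own strand, with the capitals marking both parts of the motif.
Hspa5, chr2:34772025-34772043: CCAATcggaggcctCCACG
Hsp90b1, chr10:86705638-86705656: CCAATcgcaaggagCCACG
Hsp90b1, chr10:86705533-86705551: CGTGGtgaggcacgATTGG
Creld2, chr15:88819520-88819538: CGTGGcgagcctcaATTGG
Herpud1, chr8:94386377-94386387: ATTGGgCCACG

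Cdnf (ENSMUSG00000039496.8, chr2:3513030-3526376 of GRCm38, plus strand) starts 215 bases from Hspa14, which runs away from it on the minus strand. The sequence between them is shown because it lies upstream of both genes, whose values are set side by side further on. It lies at chr2:3512815-3513029, is written on the strand of Cdnf, and has its 3 CCAAT boxes in capitals. It holds 0 copies of CCACG on this strand or the other, and 59.5% of its bases are G or C. These letters describe the window only.
Hspa14 to Cdnf: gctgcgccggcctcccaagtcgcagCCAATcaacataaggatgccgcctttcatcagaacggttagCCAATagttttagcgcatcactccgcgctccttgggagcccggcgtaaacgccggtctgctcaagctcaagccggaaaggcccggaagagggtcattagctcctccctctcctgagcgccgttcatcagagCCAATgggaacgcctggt

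In atria, Cdnf was at 19.4, 16.1 and 15.9 CPM (counts scaled to a common library size, on a scale shared by all 12 libraries) in controls V327, V333 and V334, and at 2.77, 2.57 and 2.96 CPM in CUG960 mice V119, V120 and V123. In ventricles it was at 30.1, 30.1 and 29.9 CPM in the same controls and at 3.25, 3.59 and 3.17 CPM in the same CUG960 mice. Every CUG960 library was far below every control library of its chamber, with a narrow spread inside each group. The counts behind these values were 397 to 403 per CUG960 atrial library and 2496 to 2957 per control atrial library. Means were 17.1 ± 1.93 and 2.77 ± 0.199 CPM in atria (SD, n = 3), a fall of 83.9%, and 30.0 ± 0.144 and 3.34 ± 0.220 CPM in ventricles, a fall of 88.9%. On the log2 scale this was −2.63 for atria and −3.17 for ventricles. By fold change Cdnf was the 26th lowest of 17650 genes in atria and the 5th lowest of 16909 in ventricles, which are the values it was selected on. Across all alternative settings the log2 fold change ran from −2.69 to −2.54 in atria and from −3.22 to −3.06 in ventricles.

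**Figure D1:**
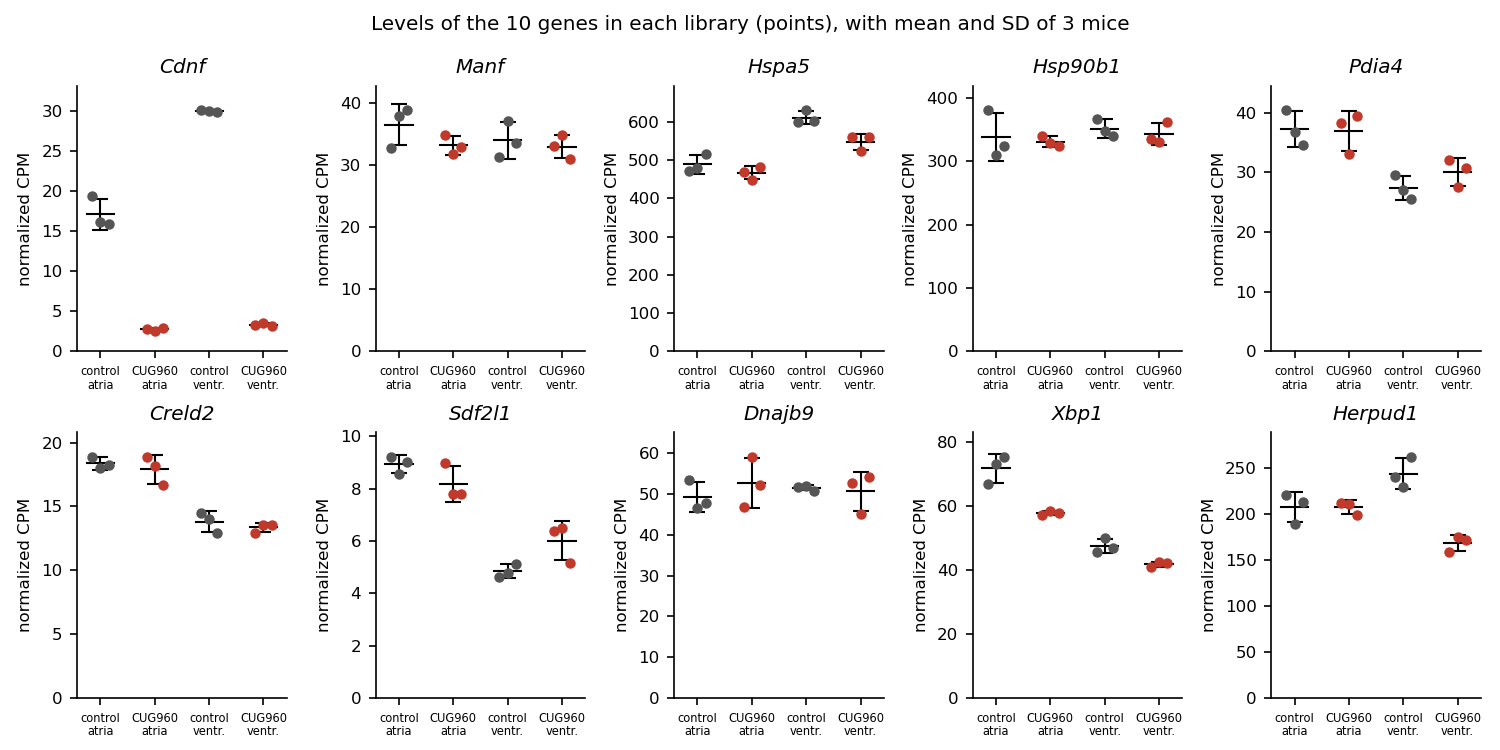
Normalized CPM (y axis, from 0) of the 10 genes in each of the 12 libraries, by group (x axis). Points are libraries, bars the mean and SD of 3 mice, grey controls and red CUG960. Cdnf lies between 15.9 and 30.1 CPM in controls and between 2.57 and 3.59 CPM in CUG960 libraries, whereas the other panels show no gap of that size.

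Manf, the paralog, did not share this pattern. In atria it was at 32.7, 37.9 and 38.8 CPM in controls V327, V333 and V334 and at 34.8, 31.7 and 32.8 CPM in CUG960 mice V119, V120 and V123. In ventricles the corresponding values were 31.3, 37.1 and 33.5 CPM and 33.1, 34.7 and 31.0 CPM. The groups overlapped in both chambers. The log2 fold change was −0.14 in atria (95% interval −0.32 to 0.045, adjusted p = 0.286) and −0.042 in ventricles (−0.24 to 0.16, adjusted p = 0.809, edgeR quasi-likelihood test with Benjamini-Hochberg adjustment over all genes tested, as for every adjusted p here). These intervals do not reach a change of the size seen for Cdnf. The Manf locus (chr9:106838312-106891979, minus strand) overlaps Rbm15b on the same strand, which could share reads with it. Rbm15b had log2 fold changes of −0.14 and −0.038 and did not pass either.

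Neuroplastin (Nptn), reported to bind MANF at the cell surface, rose in both chambers. It went from 145 ± 5.96 to 193 ± 2.45 CPM in atria (log2 fold change 0.41, SE 0.056, adjusted p = 0.00313) and from 90.4 ± 1.98 to 122.6 ± 7.03 CPM in ventricles (0.44, SE 0.072, adjusted p = 0.00607). The KDEL receptors return escaped ER proteins from the Golgi. Kdelr3 rose in atria, from 11.2 ± 1.41 to 15.9 ± 0.439 CPM (0.51, SE 0.097, adjusted p = 0.0126), and was at 6.52 and 6.61 CPM in control and CUG960 ventricles (adjusted p = 0.945). Exons of Kdelr3 and Nptn overlap those of Ddx17 and Rec114 on the opposite strand, and neither of these passed in either chamber. Kdelr1 and Kdelr2 passed in neither chamber, with log2 fold changes between −0.12 and 0.080. Whether the change of Kdelr3 differed between chambers was tested by the interaction, in which no KDEL receptor passed with edgeR or DESeq2 (Kdelr3 alone had an unadjusted p under 0.05).

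Besides Cdnf, 0 of the 9 other genes rose and 1 fell in each chamber. Over all genes tested, 7.95% rose and 6.62% fell in atria, and 5.73% rose and 4.2% fell in ventricles, so the 1 of 9 that fell in each chamber is a single gene beside a background of that order. At an unadjusted p under 0.05 in edgeR, 0 of the 9 were higher and 1 lower in atria and 1 was higher and 2 were lower in ventricles, where over all genes 15.4% and 14.8% (atria) and 13.5% and 12.2% (ventricles) were. DESeq2 called 0 higher and 1 lower in each chamber, beside 10.3% and 9.85% of all genes in atria and 8.19% and 7.07% in ventricles. Their median log2 fold change was −0.037 in atria and −0.042 in ventricles, beside −0.0088 and −0.0095 over all genes tested. None of the 9 reached 1.5-fold.

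Among the ER chaperones, Hspa5 showed the highest level per kb of transcript in all 4 groups. In atria it was at 470, 478 and 516 CPM in controls V327, V333 and V334 and at 469, 448 and 482 CPM in CUG960 mice V119, V120 and V123. In ventricles it was at 600, 630 and 601 CPM and at 559, 523 and 561 CPM. The groups overlapped in atria (log2 fold change −0.066, interval −0.21 to 0.081, adjusted p = 0.531). In ventricles every CUG960 library was below every control, but the difference did not pass (−0.15, interval −0.32 to 0.014, adjusted p = 0.233). Both intervals end well below the 1.5-fold limit on the higher side. Hsp90b1 (GRP94), the ER paralog of Hsp90, ran from 309 to 381 CPM over all 12 libraries, with log2 fold changes of −0.032 and −0.036 (adjusted p = 0.836 and 0.813).

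The smaller folding factors did not pass either. Pdia4 (ERp72), a protein disulfide isomerase, differed between genotypes by −0.013 (log2, atria) and 0.14 (ventricles; adjusted p = 0.941 and 0.381). Creld2, an ER stress-inducible protein of the ER lumen, had −0.037 and −0.046 (adjusted p = 0.764 and 0.790). Dnajb9 (ERdj4), a J-domain co-chaperone of BiP, had 0.099 and −0.022 (adjusted p = 0.517 and 0.900). For all 3 genes the libraries of both genotypes overlapped in each chamber. Sdf2l1, a component of ER chaperone complexes, had the lowest level per kb of the chaperones. In ventricles it was at 4.62, 4.79 and 5.14 CPM in controls and 6.39, 6.51 and 5.15 CPM in CUG960 mice V119, V120 and V123. The groups did not overlap, though V123 lay next to the highest control, and the log2 fold change of 0.31 (interval 0.031 to 0.59) did not pass after adjustment (adjusted p = 0.151). In atria its groups overlapped (−0.13, adjusted p = 0.394), and the difference between chambers did not pass (−0.44, SE 0.149, adjusted p = 0.229).

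Xbp1, the transcription factor whose mRNA is spliced by IRE1, fell in atria. It was at 66.8, 73.0 and 75.5 CPM in controls V327, V333 and V334 and at 57.3, 58.3 and 57.8 CPM in CUG960 mice V119, V120 and V123. The CUG960 libraries lay close together and below all controls (log2 fold change −0.31, SE 0.063, adjusted p = 0.0152). In ventricles it was at 45.7, 49.9 and 46.9 CPM and at 41.0, 42.4 and 42.1 CPM. There too the groups did not overlap, but the difference did not pass (−0.18, SE 0.071, adjusted p = 0.139), nor did the difference between chambers (−0.13, adjusted p = 0.611). The atrial call was lost without V333 (adjusted p = 0.0618), V334 (0.0632), V119 (0.0573) or V120 (0.0542), with log2 fold changes between −0.32 and −0.27 in these fits. Counts per gene do not separate the spliced from the unspliced Xbp1 mRNA.

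Herpud1, an ER membrane protein of the degradation complex, fell in ventricles. It was at 239, 229 and 262 CPM in controls V327, V333 and V334 and at 159, 175 and 171 CPM in CUG960 mice V119, V120 and V123. The lowest control was well above the highest CUG960 library (243.5 ± 16.8 against 168 ± 8.24 CPM, a decrease of 30.9%, log2 fold change −0.53, SE 0.079, adjusted p = 0.00394). The call held without any single mouse, with adjusted p between 0.00624 and 0.0202. In atria its values were 220, 189 and 213 CPM in controls and 212, 211 and 199 CPM in CUG960 mice. These overlapped fully (−0.0023, interval −0.17 to 0.16, adjusted p = 0.988). The difference between chambers passed in the fit of all 12 libraries (0.53, SE 0.105, adjusted p = 0.0301), where 0.688% of 18327 genes had a higher change in atria and 0.693% a lower one. It did not pass when any mouse was left out (adjusted p 0.0742 to 0.141). Herpud1 was the only one of the 9 genes to pass that test.

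**Figure D2:**
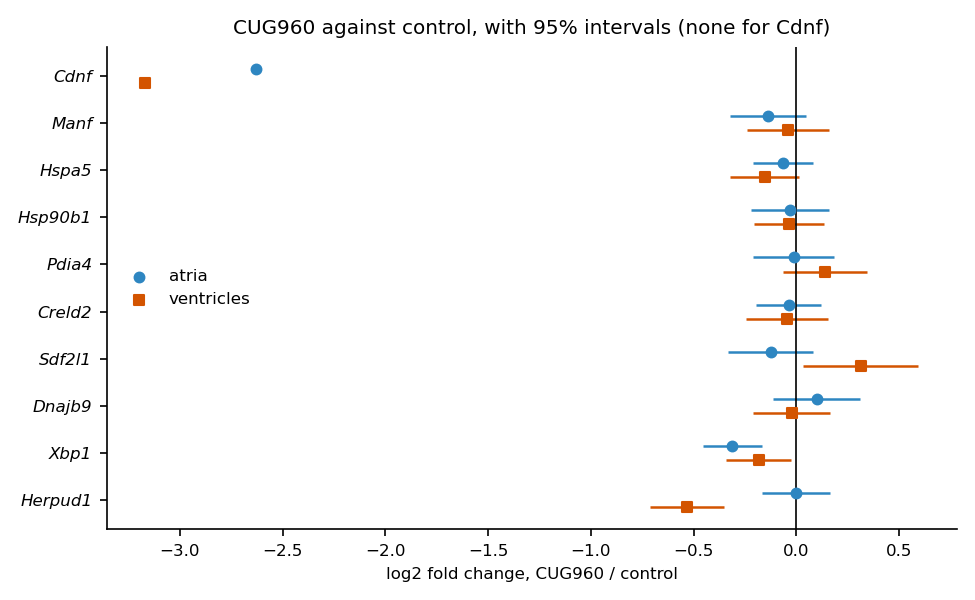
Log2 fold change of CUG960 against control (x axis) for each of the 10 genes (y axis), with circles for atria and squares for ventricles. Lines are 95% intervals of the edgeR fit, left out for Cdnf, which was chosen on these values. Cdnf lies at −2.63 and −3.17, and the other points lie between −0.53 (Herpud1 in ventricles) and 0.31 (Sdf2l1 in ventricles).

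Beyond the 10, 99 genes of ER function were tested in both chambers, of which 8 rose and 5 fell in atria and 6 rose and 3 fell in ventricles. These shares are near those of all genes tested (7.95% and 6.62% in atria, 5.73% and 4.2% in ventricles). DESeq2 called 13 higher and 8 lower in atria and 7 higher and 7 lower in ventricles, beside 10.3%, 9.85%, 8.19% and 7.07% of all genes. In the interaction 0 of the 99 passed, where 8 had an unadjusted p under 0.05 in edgeR (12.3% of all genes) and DESeq2 called 1 (3.6% of all genes), Erlec1, named after its value was seen.

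The sensors of the UPR did not pass in the edgeR fit of either chamber. Atf6 was called lower in ventricles by DESeq2 (adjusted p = 0.0464), by edgeR without V333 (−0.38, 0.0226) and, just under the threshold, in the edgeR fit of all 12 libraries. Ern1 had log2 fold changes of −0.19 and −0.12 (adjusted p = 0.185 and 0.571), Eif2ak3 −0.045 and −0.065 (0.736 and 0.753) and Atf6 −0.12 and −0.28 (0.315 and 0.0948). Of the 12 genes for sensors and their processing, 1 rose and 1 fell in atria, and 1 rose in ventricles, beside 7.95%, 6.62% and 5.73% of all genes. The falling gene was Creb3l1 (OASIS), an ER-anchored transcription factor known for its role in collagen secretion. It went from 11.5 ± 0.473 to 6.19 ± 0.467 CPM in atria (−0.89, SE 0.088, adjusted p = 7.79e-04), past 1.5-fold, and in ventricles was at 6.09 ± 1.29 and 4.16 ± 0.311 CPM (−0.55, adjusted p = 0.0652). There it was called lower by DESeq2 (adjusted p = 0.0129), without a filter on low counts (0.0255), in the fit of all 12 libraries (0.0189) and without V327 (−0.70, 0.0261). Its relative Creb3l2 rose in both chambers (0.47, adjusted p = 0.00242, and 0.49, adjusted p = 0.0196).

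Of 25 other ER chaperones and folding enzymes, 1 rose and 1 fell in atria and 2 rose in ventricles, beside 7.95% and 6.62% of all genes in atria and 5.73% in ventricles, with medians of 0.024 and 0.028. Hyou1 (GRP170), the nucleotide exchange factor of BiP, fell in atria from 66.9 ± 5.49 to 47.6 ± 2.31 CPM (−0.49, SE 0.076, adjusted p = 0.0052). Ventricular Hyou1 was at 53.5 ± 0.619 and 45.2 ± 1.39 CPM, with every CUG960 library below every control (−0.24, adjusted p = 0.0507), and DESeq2 called it lower there. The disulfide isomerase Txndc5 rose in atria (0.26, adjusted p = 0.0294) and ventricles (0.29, adjusted p = 0.033), and Txndc12 rose in ventricles (0.40, adjusted p = 0.0188). Txndc5, Creb3l2, Os9, Erlec1, Ube2g2, Man1b1, Ddit3 and Rpn1 are named because they passed, after their values were seen.

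Of 24 genes of ER-associated degradation, 3 rose and 1 fell in atria and 1 rose and 2 fell in ventricles, beside 7.95% and 6.62% of all genes in atria and 5.73% and 4.2% in ventricles. Derl3, a derlin of the retrotranslocation channel, went from 0.734 ± 0.192 to 1.32 ± 0.115 CPM in atria (0.85, SE 0.215, adjusted p = 0.0344). That call was lost in 5 of the 6 fits that left out a mouse, with adjusted p of 0.0680 to 0.116. In ventricles Derl3 was at 0.0851 ± 0.0169 and 0.174 ± 0.0475 CPM (1.02, adjusted p = 0.151). The lectins Os9 and Erlec1, which hand glycoproteins to degradation, rose in atria (0.42, adjusted p = 0.0111, and 0.47, adjusted p = 0.00297), and Os9 rose in ventricles (0.45, adjusted p = 0.00682). The ubiquitin-conjugating enzyme Ube2g2 fell in atria (−0.27, adjusted p = 0.0334) and ventricles (−0.46, adjusted p = 0.0189), and the mannosidase Man1b1 fell in ventricles (−0.27, adjusted p = 0.0409). Thus rises and falls occurred within the same list.

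Of 8 genes of the PERK arm, 1 rose in each chamber, beside 7.95% of all genes in atria and 5.73% in ventricles. Ddit3 (CHOP) rose in atria from 21.7 ± 1.63 to 27.8 ± 1.83 CPM (0.36, adjusted p = 0.0208). Ventricular Ddit3 was at 21.7 ± 3.27 and 28.7 ± 5.25 CPM, with overlapping groups (0.41, adjusted p = 0.123), and DESeq2 called it higher there. Sesn2, a stress-inducible sestrin, rose in ventricles from 4.90 ± 0.106 to 8.10 ± 0.974 CPM (0.72, SE 0.116, adjusted p = 0.00561), past 1.5-fold. The largest atrial difference in this list belonged to Atf3, at 143 ± 181 CPM in controls and 36.8 ± 37.0 CPM in CUG960 mice. Its SD exceeded its mean in both groups, and it did not pass (adjusted p = 0.279). None of 17 genes of the translocon and signal peptidase passed with edgeR. At an unadjusted p under 0.05 in edgeR, 1 was lower in atria and 2 in ventricles, beside 14.8% and 12.2% of all genes. DESeq2 called 1 lower in atria (Sec61b), beside 9.85% of all genes. The largest differences in this list were Sec61b in atria (−0.25, adjusted p = 0.0646) and Spcs2 in ventricles (−0.22, adjusted p = 0.119). Of 9 subunits of the oligosaccharyltransferase, Magt1 and Rpn1 fell in atria (−0.30, adjusted p = 0.0313, and −0.22, adjusted p = 0.0387) and Magt1 fell in ventricles (−0.46, adjusted p = 0.00693), beside 6.62% and 4.2% of all genes.

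**Figure D3:**
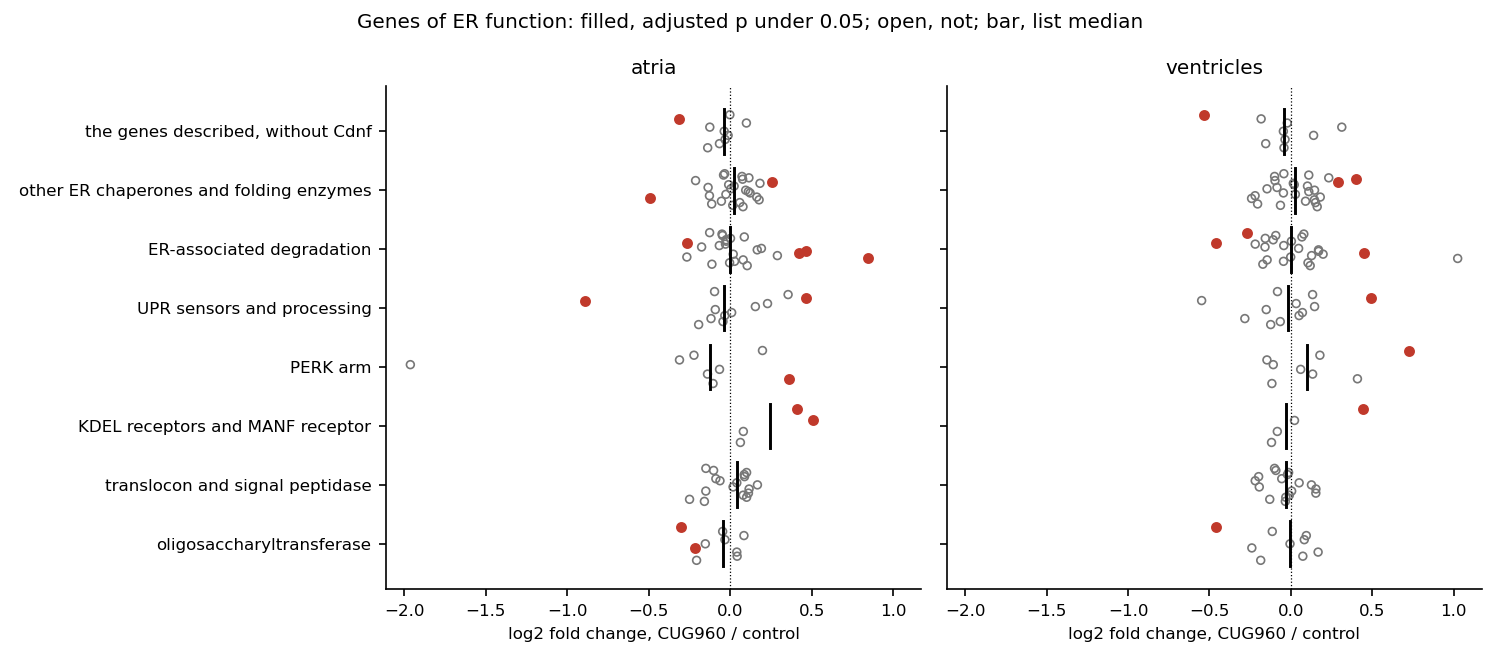
Log2 fold change of CUG960 against control (x axis) for every tested gene of 8 lists of ER function (y axis), in atria and ventricles. Filled red points had an adjusted p under 0.05, open points did not, and vertical bars are list medians. Most points lie within 0.5 of 0 and list medians between −0.12 (PERK arm, atria) and 0.25 (KDEL receptors with Nptn, atria), with Cdnf left out.

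Levels were also compared between the chambers of the same genotype. In control mice, Cdnf was at 17.1 ± 1.93 CPM in atria and 30.0 ± 0.144 CPM in ventricles, a log2 difference of −0.81. It is given without a test, since the selection of Cdnf used the same control libraries. The difference was −0.36, with the same sign, when libraries were scaled by their totals alone. In CUG960 mice the levels were 2.77 and 3.34 CPM (−0.28, also without a test), and that sign turned to 0.11 with library totals alone. Sdf2l1 (0.88, adjusted p = 7.7e-05), Xbp1 (0.59, adjusted p = 1.78e-04), Pdia4 (0.44, adjusted p = 0.0024) and Creld2 (0.41, adjusted p = 0.00205) were higher in control atria. Hspa5 was lower there (−0.33, adjusted p = 0.00382), as was Herpud1 (−0.24, adjusted p = 0.0377), but Herpud1 passed in no fit that left out a mouse. Both signs turned with library totals alone. That scaling moved the median over all genes tested from 0.033 to 0.487 in controls and from 0.0090 to 0.402 in CUG960. A sign that turned with it is therefore not particular to these genes. Manf, Hsp90b1 and Dnajb9 did not pass. Thus 4 of the 9 genes were higher and 2 lower in control atria, where 28.3% of 17451 genes were higher and 27.5% lower.

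In CUG960 mice, 5 of the 9 genes were higher in atria and 1 was lower, beside 26.7% and 27.5% of 17559 genes. Creld2 (0.41), Xbp1 (0.45), Sdf2l1 (0.43) and Pdia4 (0.28) were higher, as in controls. Herpud1 was also higher in atria there (0.29, adjusted p = 0.00637), the reverse of its order in controls, where the sign depended on the scaling. Hspa5 was lower (−0.25, adjusted p = 0.0186), a sign that turned with library totals alone. Without V119, the calls of Hspa5, Pdia4, Sdf2l1 and Herpud1 were lost (adjusted p 0.0683 to 0.0945), and only Creld2 and Xbp1 passed. Without V123, Hspa5, Pdia4 and Sdf2l1 were lost (adjusted p 0.0548 to 0.110), and without V120 only Hspa5 was (0.087).

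Levels of the 10 genes were compared with each other as CPM per kb of the longest coding transcript. In control ventricles, Hspa5 led at 166 ± 4.68 CPM per kb, followed by Herpud1 (125) and Hsp90b1 (124), whose libraries overlapped. Far below came Xbp1 (22.3), Dnajb9 (21.0), Manf (15.1), Pdia4 (11.4), Creld2 (10.1), Cdnf (9.96) and Sdf2l1 (4.38). Creld2 and Cdnf overlapped there. In control atria Cdnf was the lowest of the 10, at 5.69 ± 0.642 CPM per kb, below Sdf2l1 at 8.07 ± 0.308. In CUG960 mice it was lowest in both chambers, at 0.918 ± 0.0661 and 1.11 ± 0.0729 CPM per kb. Manf stayed between 14.7 and 16.2 CPM per kb in all 4 group means. The distance between Manf and Cdnf depended on the length used: per kb of all annotated exons, Manf was at 10.35 and Cdnf at 5.51 CPM in control atria, but at 9.64 and 9.65 CPM in control ventricles.

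No tested neighbour of Cdnf on chromosome 2 passed as lower with edgeR, though the level of Fam107b was lower in both chambers. Hspa14, which codes for a ribosome-associated protein of the Hsp70 family and starts 215 bases away, was at 22.4 ± 0.492 and 24.98 ± 0.136 CPM in control and CUG960 atria (log2 fold change 0.16, SE 0.056, adjusted p = 0.0953). In ventricles it was at 24.4 ± 0.726 and 26.4 ± 0.724 CPM (0.12, adjusted p = 0.371). Fam107b, on the other side, had −0.22 and −0.35 (adjusted p = 0.113 and 0.151). Within 100 kb, none of the protein-coding genes that could be tested (Hspa14, Gm45902, Fam107b, Dclre1c, Suv39h2 and, in ventricles, Meig1) passed with edgeR. At an unadjusted p under 0.05, 1 was higher and 1 lower in each chamber, where 30.2% of all genes in atria and 25.7% in ventricles had such a p. DESeq2 called 1 (Meig1, higher in ventricles), beside 15.3% of all genes there. Gm45902 overlaps Hspa14 on the same strand, so reads of these genes may be split between them. Meig1 came closest, in ventricles, from 4.23 ± 0.634 to 6.11 ± 0.894 CPM (0.53, adjusted p = 0.0599).

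**Figure D4:**
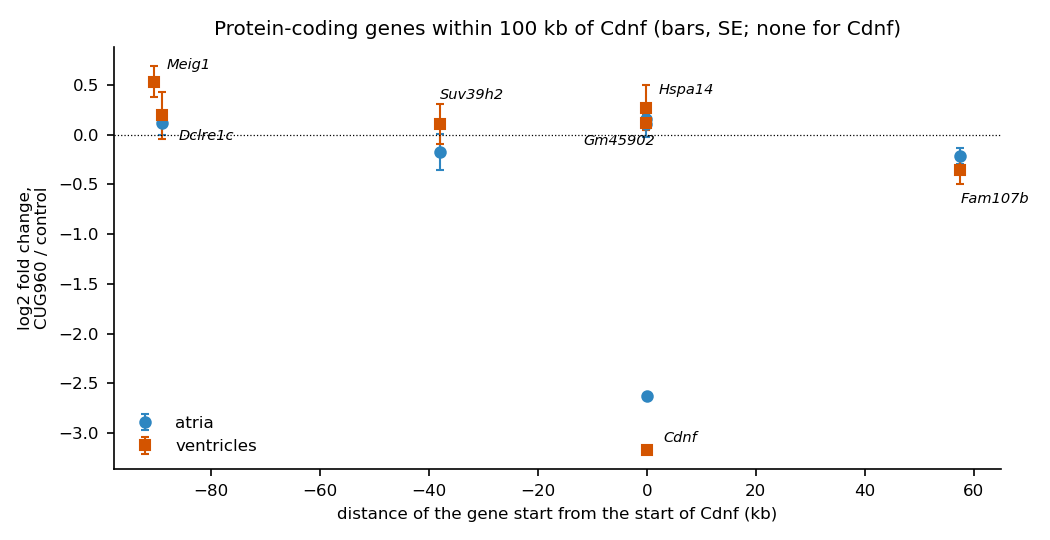
Log2 fold change of CUG960 against control (y axis) for protein-coding genes within 100 kb of Cdnf, by the distance of their start from that of Cdnf in kb (x axis). Circles are atria, squares ventricles, and bars SE, left out for Cdnf. Cdnf lies at −2.63 and −3.17, and the other points between −0.35 and 0.53.

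By the root mean square difference of centred log2 CPM over the 12 libraries, the genes most like Cdnf among 13111 were Coq8a (0.336), Mfsd4b1 (0.486), Gm44103 (0.498), Pdlim7 (0.742) and Bcl6 (0.753). They were picked for this likeness, and their changes are therefore given without a test. Coq8a, a mitochondrial protein needed for coenzyme Q synthesis, was at 258 to 293.5 CPM in control atria and 66.5 to 78.9 CPM in CUG960 atria. In ventricles it was at 535 to 609 CPM in controls and 85.8 to 106.5 CPM in CUG960 mice. Coq8a thus had the same order of groups as Cdnf, with log2 fold changes of −1.94 and −2.60. The 4 others, among them the PDZ and LIM domain protein Pdlim7 and the transcriptional repressor Bcl6, had log2 fold changes between −2.43 and −1.55. Gm44103 is an unclassified transcript that overlaps Washc2 on the opposite strand. The strand setting of the counting is not given, so its reads are less certain. Gm44103 and Mfsd4b1 averaged only 1.4 and 1.7 CPM, near the limit of 1 CPM, with as few as 39 and 48 counts in a library.

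None of the other 9 genes was near Cdnf by this measure. The nearest, Herpud1, ranked 964th (1.35), and Manf ranked 3597th (1.45). The measure is not scaled, so these distances mostly restate the size of the fall that Cdnf was chosen on. Genes that varied little, such as Hspa5 (1.41), lay about as far from it. The genes most like Hspa5 were Gtf2h3, Ppp3cb, Set, Nfyb and Ppp6c, at differences of 0.042 to 0.0553, all of which vary little over the libraries. Hsp90b1 was at 0.153 from Hspa5, Manf and Dnajb9 at 0.190, and Sdf2l1 at 0.513.

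**Figure D5:**
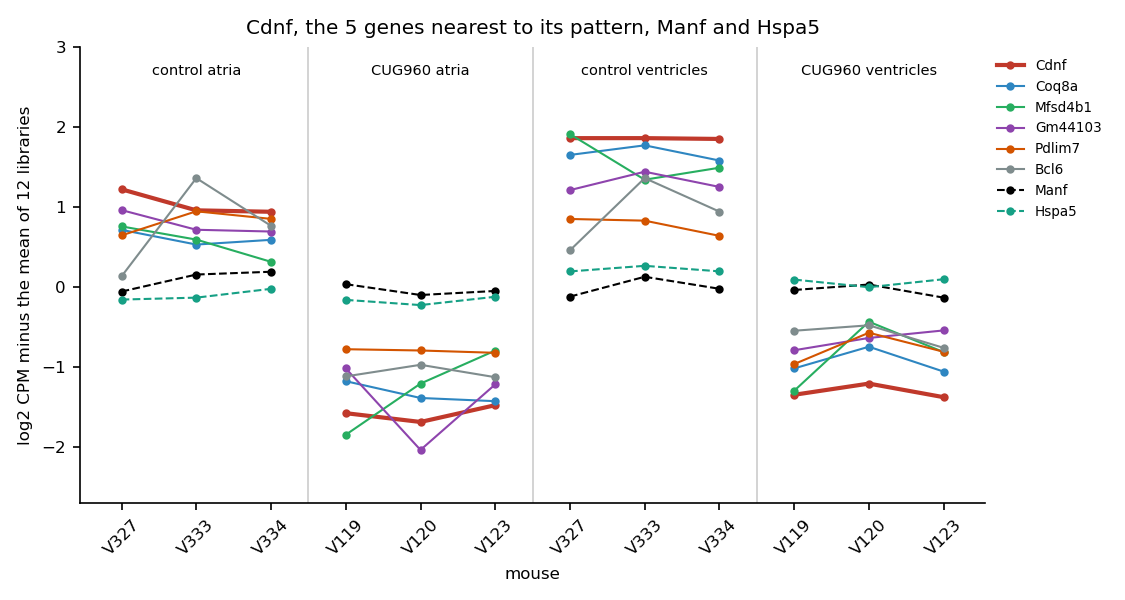
Log2 CPM minus the mean of the 12 libraries (y axis) for Cdnf, the 5 genes most like it, Manf and Hspa5 (dashed), in each library by mouse and group (x axis). Lines join the libraries of a group only for legibility. The 6 solid lines are above 0 in all control libraries and below 0 in all CUG960 libraries, while Manf and Hspa5 stay near 0.

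Markers of other cells moved with genotype in the same libraries. The summed level of 8 endothelial markers, of which Pecam1 had the most CPM and none was at 0, was 979 ± 112 and 750 ± 63.2 CPM in control and CUG960 atria, and 954.5 ± 99.6 and 724 ± 30.6 CPM in ventricles. Of these, 4 fell in atria and 3 in ventricles, where 6.62% and 4.2% of all genes fell, the background for the marker counts that follow too. For counts at an unadjusted p under 0.05 in edgeR, 14.8% and 12.2% of all genes were lower. For DESeq2 counts, 9.85% and 7.07% were called lower. At an unadjusted p under 0.05 in edgeR, 6 of the 8 endothelial markers were lower in atria and 7 in ventricles. DESeq2 called 5 of them lower in each chamber. Their median log2 fold changes were −0.379 and −0.371, with 0 of 8 above 0 in each. The sum of 8 fibroblast markers, with Dcn at the most CPM, was 2485 ± 209 and 2076 ± 169 CPM in atria, where 3 fell, and 1418 ± 120 and 1416 ± 13.1 CPM in ventricles, where 0 passed (2 at an unadjusted p under 0.05, 1 by DESeq2). In atria 7 of them were lower at an unadjusted p under 0.05 in edgeR, and DESeq2 called 5 lower. The fibroblast median was −0.327 in atria, with 0 of 8 above 0, and 0.0068 in ventricles, with 5 of 8 above 0. Adipocyte markers summed to 155 ± 24.6 and 117 ± 21.8 CPM in atria, where 0 of 7 tested passed (1 lower at an unadjusted p under 0.05 in edgeR, 0 by DESeq2), and to 586 ± 73.7 and 383.5 ± 42.8 CPM in ventricles, where 4 of 7 tested fell. Most of these sums was Fabp4, at 495 to 635 CPM in control and 337 to 420 CPM in CUG960 ventricles. The median log2 fold change of the 7 tested adipocyte markers was −1.06 in atria and −1.6 in ventricles, with 0 above 0 in each. B and plasma cell markers, cells rich in Xbp1 and Derl3, summed to 27.6 ± 4.49 and 13.8 ± 0.432 CPM in atria, most of it Sdc1, the only one that fell with edgeR. At an unadjusted p under 0.05, 3 of these 8 were lower in atria (14.8% of all genes). DESeq2 called 3 lower there (Sdc1, Cd79a and Ms4a1, beside 9.85% of all genes), with a list median of −0.893. In ventricles the sums were 8.26 ± 0.183 and 8.22 ± 0.0515 CPM, and 0 of the 8 were called by any of these tests (median −0.276). The cardiomyocyte markers, with Myh6 at the most CPM, summed to 40910 ± 992 and 43760 ± 1090 CPM in atria and 59230 ± 2946 and 62550 ± 2580 CPM in ventricles. Myh6 itself was at 25270 to 25940 and 29450 to 30430 CPM in atria, and at 22810 to 23760 and 27390 to 28010 CPM in ventricles. Of these 8 markers 2 rose (7.95% of all genes) and 1 fell in atria, with a median of −0.167. In ventricles 1 fell, with a median of 0.024. The 8 atrial cardiomyocyte markers summed to 28510 ± 1374 and 23520 ± 1066 CPM in atria, where 1 fell. Nppa had the most CPM of them, at 14630 to 16580 CPM in control and 11400 to 12380 CPM in CUG960 atria. The median of this list was 0.012 in atria, with 4 of 8 above 0. Of 8 leukocyte markers 0 passed in either chamber with edgeR (0 and 2 at an unadjusted p under 0.05, 0 and 1 by DESeq2). Their medians were −0.234 in atria and −0.213 in ventricles, with 0 of 8 above 0 in each. They summed to 389 ± 192 and 306.5 ± 24.7 CPM in atria, and to 132 ± 15.4 and 124 ± 14.9 CPM in ventricles. Control atria of V334 stood apart at 609 CPM, beside 298 (V327) and 259 CPM (V333). The PERK arm summed to 551.5 CPM in that library, beside 234 and 197 CPM. Atf4, the gene of that list with the most CPM over all libraries, was at 93.8 CPM there, beside 82.3 and 71.9 CPM. Atf3, of the same list, had an SD above its mean in control atria. Of the neuron and Schwann cell markers 1 of 6 tested fell in atria and 2 of 5 in ventricles. Mitochondrial genes took 19.6% to 20.5% of counts in control ventricles and 15.3% to 18.4% in CUG960 ventricles. The part of these differences in the changes of Cdnf, Xbp1, Creb3l1 and Herpud1 was not tested.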

How the data were processed

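The authors aligned paired-end reads of stranded, poly(A)-selected libraries to GRCm38 (mm10) and deposited estimated counts per gene from RSEM 1.3.1, 1 column per library, per the labels and the methods. The aligner and the strand setting of the counting are not given in the sources used here. The deposited expected counts are whole numbers, not scaled or filtered. Of the 51826 entries, 92 repeat a symbol and were kept apart.

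Counts were analyzed with edgeR 4.0.16 in R 4.3.3 (filterByExpr, TMM, glmQLFit, glmQLFTest), separately for each chamber, for the interaction over all 12 libraries, and for atria against ventricles within each genotype. A gene passed at an adjusted p under 0.05 over all genes tested, and 1.5-fold was a second limit. The test was checked on simulated data. Displayed CPM use TMM factors of all 12 libraries. Likeness used genes of at least 1 CPM on average and a prior count of 2. DESeq2 1.42.0, other scalings and filters, fold limits and left-out mice were alternatives. Scaling by library totals alone was added after seeing the data. Locations and lengths come from GENCODE M21 (GRCm38), sequences from RefSeq.

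Replicates were separate mice. The mouse numbers pair atria with ventricles of the same animal: deviations from the group means correlated at r = 0.0522 to 0.303 in the 6 same-mouse pairs and −0.282 to 0.221 in 30 pairs of different mice, over 13112 genes. At this depth the number of mice limits precision.

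The 10 genes and the gene lists were chosen with earlier results of these data known. Genes named were the 10, the UPR sensors, the KDEL receptors and Nptn, other ER genes past both limits, the most changed gene of each ER list and chamber, and the 5 genes most like Cdnf and Hspa5, with others said to be named because they passed. Lists were described by counts and medians.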

Additional observations from a re-analysis of the deposited data

Results flagged for a closer look

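Herpud1 was picked out because its CUG960 change differed between the chambers. The log2 fold change was −0.0023 in atria and −0.53 in ventricles, a difference of 0.53 (SE 0.105, adjusted p = 0.0301, edgeR interaction over 12 libraries). All 3 CUG960 ventricles were below all 3 control ventricles, while the atria overlapped. The difference itself did not pass when any mouse was left out, with values of 0.48 to 0.59 and adjusted p of 0.0742 to 0.141, nor with library totals alone (0.46, adjusted p = 0.0605).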

How the results depend on the processing

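With the 1.5-fold limit added, the genes past the test went from 2573 to 969 in atria and from 1680 to 804 in ventricles, and the members past it, Cdnf not counted, from 1 to 0 in both. DESeq2 called 2580 genes in ventricles and 660 in the interaction, in place of 253. Leaving out a mouse gave 1235 to 2584 genes in atria (members 0 to 1), 784 to 1347 in ventricles (1 in each fit), 74 to 131 in the interaction (0 members), 7679 to 8638 between the chambers of controls and 7493 to 7965 in CUG960 (2 to 5 members, 6 in the full fit). Of 1483 results for named genes under alternatives, 1345 kept sign and call, and in 55 the sign turned with no call before or after, 16 of them with library totals alone.

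Library totals alone moved the median log2 difference between chambers from 0.033 to 0.487 in controls and from 0.0090 to 0.402 in CUG960, and that between genotypes in ventricles from −0.0095 to 0.098. The share of calls that were higher went from 54.6% to 66.0% in atria, 57.7% to 81.6% in ventricles, 49.8% to 34.5% in the interaction, and 50.7% to 81.8% and 49.2% to 79.7% between chambers of controls and CUG960. The members past the interaction went from 1 to 0. In this setting the atria against ventricles difference turned sign in controls for Hspa5 (0.13), Hsp90b1 (0.39), Dnajb9 (0.38), Herpud1 (0.22), Atf6 (0.34) and Hspa14 (0.33), and in CUG960 for Cdnf (0.11), Manf (0.39), Hspa5 (0.15), Hsp90b1 (0.33), Ern1 (0.39), Hspa14 (0.30) and Pdlim7 (0.36). It also turned for Bcl6 in controls (0.33) and Sesn2 in CUG960 (0.096), which passed in neither setting. Relative to the new median all of these were lower in atria. The cause was not tested.

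With the mouse as a replicate block, 167 genes passed the interaction with a higher and 167 with a lower change in atria (126 and 127 without), 9739 the chamber difference in controls (9726) and 9729 in CUG960 (9517). It changed no call of the 10 genes.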
